A study of Rattus norvegicus with 6 samples.

Results

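Transcript levels of 9 genes of the pancreatic duct (Sox9, Onecut1, Cftr, Spp1, Clu, Muc1, Tspan8, Epcam and Cldn7) were read from RNA sequencing of fetal rat islets. The genes were taken by symbol, and 9 of 9 were present among the 17321 genes counted. In Sprague Dawley dams, glucose was infused at 4 mg/min over 48 h to the fetuses of the left uterine horn (high glucose, 3 libraries), and those of the right horn, without hyperglycaemia, were the paired controls (control, 3 libraries). All fetuses were at gestational day 22, each library pooled the islets of 2 pancreata, and all islets were picked by hand after collagenase digestion and spent 24 h in RPMI medium at 5 mM glucose before RNA was taken. The groups are those of the treatment labels. The name of the counted alignment gives the other horn than the sample title does in 6 of 6 libraries, and all directions given here would turn round if the alignment names were the right ones. Horn side and glucose cannot be told apart in this design.

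The pancreatic duct carries enzymes and a bicarbonate-rich fluid from the acini to the gut. In the fetus the duct epithelium, then called the trunk, is also the tissue from which endocrine cells leave to form islets. Sox9 and Onecut1 are transcription factors of that epithelium. Cftr is the apical channel for chloride and bicarbonate, Spp1 and Clu are secreted proteins, Muc1 and Tspan8 sit in the cell membrane, and Epcam and Cldn7 belong to the contacts between epithelial cells. Several of these genes are also used outside the duct. Epcam is made by endocrine and acinar cells, Spp1 by macrophages, and Sox9 by Schwann and some connective tissue cells. These are examples, and the cell of origin was not tested for any of the duct genes. Values are CPM (counts in 1000000, with library totals scaled by TMM factors), and in bulk RNA fewer cells of a type and less RNA per cell cannot be told apart.

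Of the 9 duct genes, 5 were higher in the high glucose library of every pair (Cftr, Spp1, Clu, Muc1 and Epcam), against 11.7% of the 12276 genes tested. No duct gene passed the test across all genes (edgeR quasi-likelihood with the dam pair as a block, adjusted p below 0.05). That test called 0.0163% of all genes, and 0% as higher. At an unadjusted p below 0.05 there were 4 duct genes, Cftr, Clu, Spp1 and Muc1, all higher, against 1.67% of all genes that were higher at that level. DESeq2 called 2 duct genes, Cftr and Clu, where it called 0.171% of all genes as higher, and limma voom called 0. Their median log2 difference was 0.73, beside 0.0041 over all genes tested, and it was 1.20 in pair 1, 0.36 in pair 2 and 0.60 in pair 3. The genes were picked with these data known, so the counts describe the genes and are not independent evidence.

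**Figure D1:**
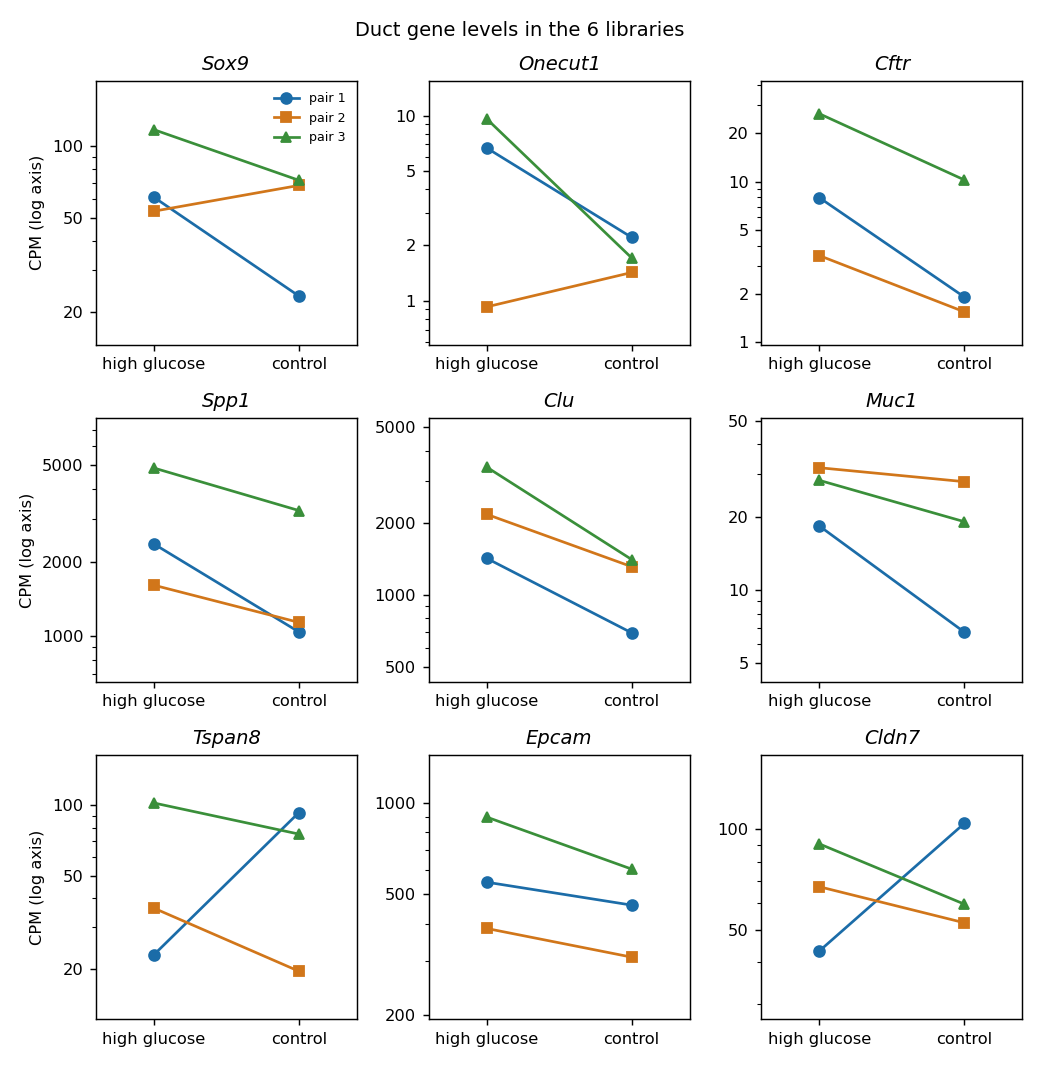
CPM of each duct gene (log axis, 1 panel per gene) in the high glucose and the control library of each dam pair, joined by a line. Lines for Cftr, Spp1, Clu, Muc1 and Epcam are higher at the high glucose end in all 3 pairs, while those of Tspan8 and Cldn7 run the other way in pair 1 and those of Sox9 and Onecut1 in pair 2.

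Sox9, which keeps duct and progenitor cells in their state (rn6 chr10:101288528-101294028, 3 exons), measured 60.9, 53.2 and 117 CPM in the high glucose libraries of pairs 1 to 3, against 23.4, 68.3 and 71.8 CPM in the control libraries. The groups overlapped, with the control library of pair 1 lowest and the high glucose library of pair 3 highest. The log2 difference was 1.37 in pair 1, -0.36 in pair 2 and 0.71 in pair 3, and the fit gave 0.58 (SE 0.32, edgeR adjusted p = 0.9996). Without pair 1 it gave 0.17 and without pair 2 it gave 1.04. Onecut1, also called HNF6, is needed in the mouse for normal ducts and for the start of endocrine development (rn6 chr8:81766030-81793579, 2 annotated exons). It had 213, 19 and 309 counts in the high glucose libraries, against 76, 23 and 50 counts in the control libraries. In CPM these were 6.70, 0.928 and 9.62 in high glucose and 2.20, 1.42 and 1.71 in control. The control libraries lay close together and the high glucose libraries spread 10.4-fold, with pair 2 below all 3 controls. The fitted log2 difference was 1.30 (SE 0.60, edgeR adjusted p = 0.9996), and it was 0.61 without pair 3 and 2.05 without pair 2. Both transcription factors had the same signs by pair, higher in pairs 1 and 3 and lower in pair 2, an order of signs held by 13.5% of all genes tested.

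Cftr, whose loss in cystic fibrosis blocks the duct with thick secretions (rn6 chr4:42693658-42860676, 27 exons), had a high fitted difference at a low level. Its difference was the highest of the 9 genes in the edgeR fit with the dam block, while Onecut1 was higher with limma voom (1.68 against 1.53), with no block (1.69 against 1.46) and without pair 2 (2.05 against 1.70). It had 253, 71 and 852 counts in the high glucose libraries, against 66, 25 and 301 counts in the control libraries. In CPM these were 7.95, 3.47 and 26.5 in high glucose and 1.91, 1.55 and 10.3 in control. The groups overlapped, as the control library of pair 3 lay above the high glucose libraries of pairs 1 and 2. Control libraries spanned 6.64-fold, more than any within-pair ratio, which was 4.16 in pair 1, 2.24 in pair 2 and 2.58 in pair 3. The fitted log2 difference was 1.54 (SE 0.31) with an edgeR adjusted p of 0.231 and a DESeq2 adjusted p of 0.00280.

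Spp1, or osteopontin, a secreted phosphoprotein that binds integrins (rn6 chr14:6673686-6679921, 7 exons), had the highest mean CPM of the 9 genes in each group. In both libraries of pair 2, however, Clu was higher. Spp1 measured 2381, 1614 and 4873 CPM in the high glucose libraries and 1039, 1136 and 3263 CPM in the control libraries. Each dam's high glucose library was above its control, but the control of pair 3 exceeded the high glucose libraries of the other dams. The fitted log2 difference was 0.76 (SE 0.25, edgeR adjusted p = 0.705), and DESeq2 gave an adjusted p of 0.0523. Macrophages also make Spp1. The 8 macrophage markers looked up were all detected, and they summed to 378 to 686 CPM in high glucose and 706 to 940 CPM in control. Their sum was lower in high glucose in each pair, and their part in the Spp1 values was not tested.

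Clu, the secreted chaperone clusterin (rn6 chr15:42626612-42665848, 10 exons), was the only one of the 9 whose groups did not overlap. It measured 1423, 2172 and 3417 CPM in the high glucose libraries, against 696, 1313 and 1407 CPM in the control libraries. The gap was narrow, since the lowest high glucose library and the highest control library differed by little, and 1.21% of all genes tested had every high glucose library above every control. Within pairs Clu was 2.05-fold, 1.65-fold and 2.43-fold higher in high glucose. The fitted log2 difference was 1.01 (SE 0.23) with an edgeR adjusted p of 0.318 and a DESeq2 adjusted p of 0.000322. Spp1, Clu and Epcam together held 95.6% to 96.5% of the counts of the 9 genes in the high glucose libraries and 90.4% to 95.7% in the control libraries. A sum over the 9 genes therefore reports mainly on these abundant members. That sum was 0.475%, 0.395% and 1.03% of all counts in the high glucose libraries of pairs 1 to 3 and 0.270%, 0.262% and 0.541% in the control libraries.

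Muc1, a mucin that spans the apical membrane (rn6 chr2:188543137-188547874, 7 exons), measured 18.4, 32.0 and 28.4 CPM in the high glucose libraries and 6.72, 28.0 and 19.2 CPM in the control libraries. The control library of pair 1 was lowest, and the pair 2 libraries were nearly level (log2 difference 0.19). The fitted log2 difference was 0.73 (SE 0.27, edgeR adjusted p = 0.856), and it was 0.38 without pair 1. Tspan8, a tetraspanin that groups other membrane proteins (rn6 chr7:58814805-58847564, 8 exons), measured 22.9, 36.3 and 102 CPM in the high glucose libraries and 93.1, 19.5 and 75.3 CPM in the control libraries. It was lower in high glucose in pair 1 (log2 difference -2.02) and higher in pair 2 (0.89) and pair 3 (0.44). The fitted log2 difference of -0.18 (SE 0.78, edgeR adjusted p = 0.9996) averages over these opposite signs, and it was 0.66 without pair 1.

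Epcam, the adhesion molecule of simple epithelia (rn6 chr6:11282194-11298156, 9 exons), measured 548, 385 and 899 CPM in the high glucose libraries and 460, 310 and 605 CPM in the control libraries. Its differences were the most even of the 9 genes, with log2 values of 0.25, 0.31 and 0.57 in pairs 1 to 3. The fitted value was 0.38 (SE 0.19, edgeR adjusted p = 0.9996). Cldn7, a tight junction claudin that binds Epcam directly (rn6 chr10:56576442-56578628, 5 exons), parted from it in pair 1 and was close to it in pairs 2 and 3. It measured 43.2, 67.3 and 90.5 CPM in the high glucose libraries and 104, 52.4 and 59.6 CPM in the control libraries, so the control library of pair 1 was highest. Its log2 differences were -1.27, 0.36 and 0.60 in pairs 1 to 3, the fit gave -0.09 (SE 0.40, edgeR adjusted p = 0.9996), and without pair 1 the fit gave 0.48. Tspan8 and Cldn7 shared this order of signs, which 13.8% of all genes tested also had.

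**Figure D2:**
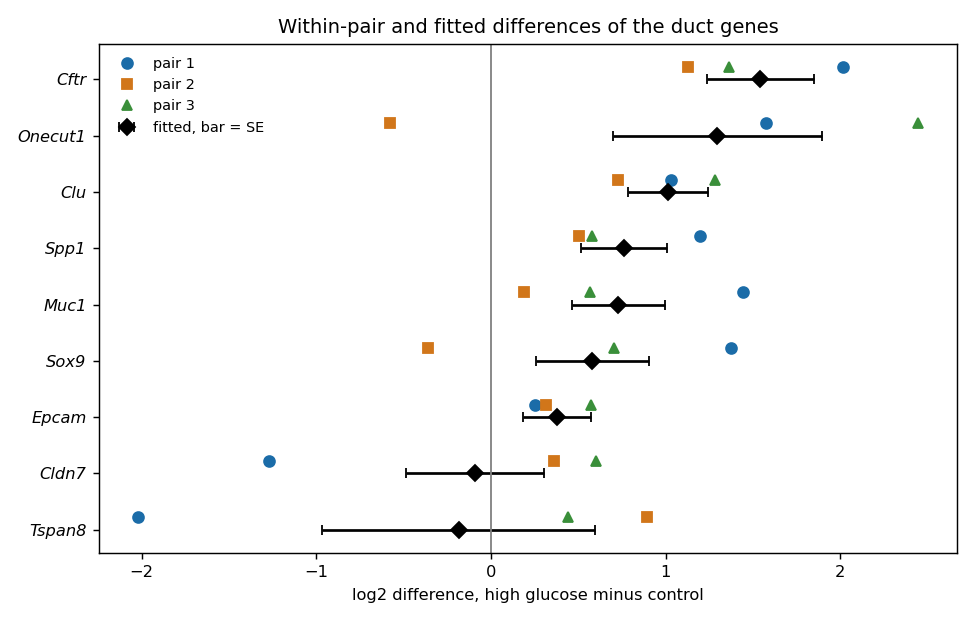
Log2 differences of the 9 duct genes (high glucose minus control) within each dam pair, with the value fitted by edgeR and its standard error. All 3 pair values lie right of 0 for Cftr, Clu, Spp1, Muc1 and Epcam, and pair 1 lies far left for Tspan8 (-2.02) and Cldn7 (-1.27).

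The start regions of 4 genes are printed for comparison. Cftr and Spp1 were higher in all 3 pairs, and Epcam and Cldn7 are binding partners whose differences parted in pair 1. Each sequence is from RefSeq (build GRCr8, 250 bases before to 50 after the annotated start), where 6 of the 9 genes had an entry. Capitals mark matches on either strand to 6 short motifs, chosen after the sequences were seen: the E-box CACCTG, the AP-1 site TGACTCA, the cAMP response element TGACGTCA and its variant TGACATCA, the SOX core ACAAAG and the Onecut core ATCAAT.
Cftr, GRCr8 chr4:47527379-47527678, plus strand: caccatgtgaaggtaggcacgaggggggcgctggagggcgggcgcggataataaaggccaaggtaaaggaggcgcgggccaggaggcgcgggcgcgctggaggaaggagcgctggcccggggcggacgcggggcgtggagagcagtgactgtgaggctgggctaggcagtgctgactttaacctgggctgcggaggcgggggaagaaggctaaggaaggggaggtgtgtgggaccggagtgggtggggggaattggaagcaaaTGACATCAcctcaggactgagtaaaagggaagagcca
Spp1, GRCr8 chr14:5619755-5620054, minus strand: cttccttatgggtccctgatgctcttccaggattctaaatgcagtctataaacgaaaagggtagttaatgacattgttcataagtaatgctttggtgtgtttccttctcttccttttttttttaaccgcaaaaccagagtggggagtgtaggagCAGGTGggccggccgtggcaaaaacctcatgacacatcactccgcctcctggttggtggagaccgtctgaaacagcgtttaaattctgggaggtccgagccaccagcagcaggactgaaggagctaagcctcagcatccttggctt
Epcam, GRCr8 chr6:12649629-12649928, minus strand: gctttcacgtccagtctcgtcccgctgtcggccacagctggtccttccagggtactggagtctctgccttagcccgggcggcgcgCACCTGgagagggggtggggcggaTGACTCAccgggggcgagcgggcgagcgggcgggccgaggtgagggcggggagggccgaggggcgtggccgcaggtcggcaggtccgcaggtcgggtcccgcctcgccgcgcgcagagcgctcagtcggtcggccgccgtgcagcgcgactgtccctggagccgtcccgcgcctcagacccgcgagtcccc
Cldn7, GRCr8 chr10:55188420-55188719, plus strand: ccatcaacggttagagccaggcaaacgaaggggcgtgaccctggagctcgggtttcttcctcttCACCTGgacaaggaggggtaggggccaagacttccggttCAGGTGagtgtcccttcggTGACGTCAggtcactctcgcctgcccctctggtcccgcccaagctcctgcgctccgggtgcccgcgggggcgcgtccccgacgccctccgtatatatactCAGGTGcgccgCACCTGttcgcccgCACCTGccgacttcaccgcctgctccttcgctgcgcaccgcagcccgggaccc
In these 4 windows no matches overlapped. Cldn7 held the E-box 5 times, starting 186, 147, 28, 17 and 3 bases before the start, and 4 of 33469 start regions held it 5 or more times. Epcam and Spp1 held the E-box once each, and 18.8% of all start regions held it at least once. The E-box is bound by the Snail and Zeb repressors of epithelial genes, among others. Cldn7 also held the cAMP response element, present in 1.83% of all start regions, and Cftr its variant, present in 4.34%. Epcam held the AP-1 site, present in 4.63%. The SOX core (18.8% of all start regions) was found only in Tspan8 among the 6 genes with an entry, and the Onecut core (8.06%) in none of these 6 windows. Guanine and cytosine made up 65.0% of the Cftr window, 48.7% of Spp1, 75.7% of Epcam and 67.0% of Cldn7, beside a median of 51.7% over all start regions. A match to letters is a description and no sign of binding.

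Per kilobase of annotated exon the 9 genes spanned a wide range of levels. Spp1 had the highest mean, at 1988 ± 1146 CPM per kb in high glucose and 1219 ± 845 CPM per kb in control (SD, n = 3 each). Clu followed at 1257 ± 542 in high glucose and 612 ± 208 in control, and Epcam at 418 ± 180 and 314 ± 101 CPM per kb in the same order. These were the 3 abundant members, and Epcam stood above the next gene in 6 of 6 libraries. Cldn7 measured 59.9 ± 21.1 CPM per kb in high glucose and 64.5 ± 25.1 in control, and Tspan8 46.2 ± 36.5 and 53.7 ± 33.0. Sox9 measured 19.1 ± 8.65 CPM per kb in high glucose and 13.5 ± 6.69 in control, and Muc1 11.4 ± 3.06 and 7.80 ± 4.65. Onecut1 and Cftr were lowest, Onecut1 at 2.45 ± 1.88 CPM per kb in high glucose and 0.756 ± 0.168 in control, and Cftr at 2.01 ± 1.95 and 0.728 ± 0.784. Among neighbours in this order, the ranges over the control libraries were apart for Epcam over Cldn7 and for Muc1 over Onecut1. All other neighbouring pairs overlapped in control, and in high glucose Clu over Epcam was apart as well.

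**Figure D3:**
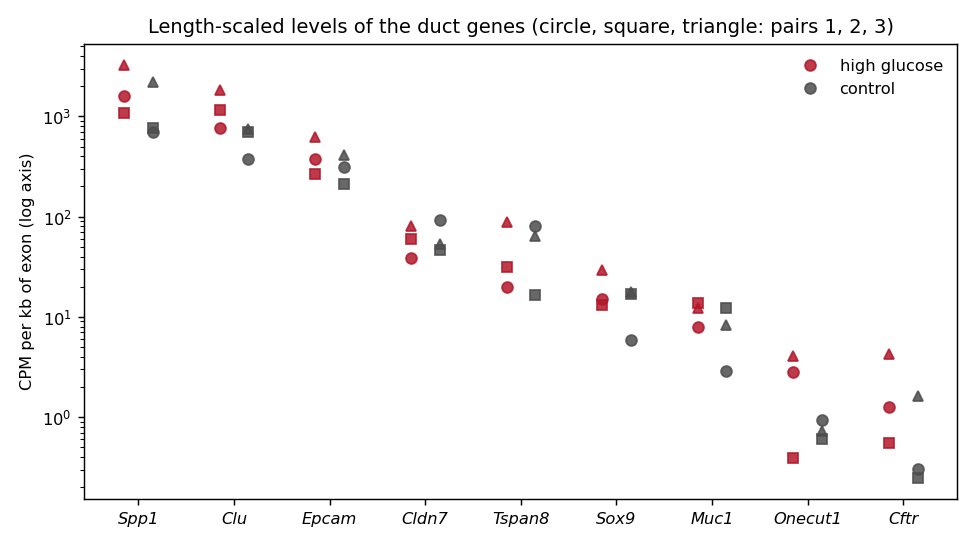
CPM per kb of annotated exon (log axis) for the 9 duct genes in order of their control mean, with 3 high glucose libraries left of 3 control libraries and the dam pair given by the marker shape. Spp1, Clu and Epcam lie above the other 6 genes in all 6 libraries.

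The libraries differed between dams as well as between groups. The high glucose library of pair 3 was the highest of the 6 for 7 of the 9 genes (Sox9, Onecut1, Cftr, Spp1, Clu, Tspan8 and Epcam). The control library of pair 1 was the lowest for Sox9, Spp1, Clu and Muc1 and the highest for Cldn7. To set the duct genes against an epithelial gene of the same library, counts were divided by those of Epcam, a comparison added after the data were seen. The ratio was higher in high glucose in all 3 pairs for Cftr (log2 1.80, 0.85 and 0.80), Clu (0.78, 0.41 and 0.71) and Spp1 (0.94, 0.19 and 0.01). For Muc1 the log2 ratio difference was 1.20, -0.12 and -0.01, so relative to Epcam it was higher in pair 1 alone. Epcam is not restricted to the duct, so this ratio is not per duct cell.

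Other genes of duct and epithelium were read from 7 lists, of which 73 genes were tested. None was called by edgeR (adjusted p below 0.05), 18 had an unadjusted p below 0.05 (4.82% of all genes did), 20 were higher and 5 lower in all 3 pairs, and the median log2 difference was 0.18. Over all genes 11.7% were higher and 11.3% lower in all 3 pairs. Among 9 duct transcription factors 3 were higher in all 3 pairs and none lower. Ehf, an epithelial ETS factor, measured 74.3, 20.5 and 87.7 CPM in high glucose and 19.0, 16.8 and 34.5 CPM in control. Its log2 difference was 1.21 (SE 0.31) with an edgeR adjusted p of 0.553 and a DESeq2 adjusted p of 0.0212. Yap1, a Hippo pathway coactivator, had the lowest difference of this list (0.08).

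Among 11 duct transport genes 3 were higher and 2 lower in all 3 pairs, with a median log2 difference of -0.03, beside the fitted 1.54 of Cftr. Sctr, the secretin receptor that drives duct fluid through cAMP and Cftr, measured 55.4, 74.3 and 122 CPM in high glucose and 17.1, 91.2 and 50.9 CPM in control. Its log2 differences were 1.69, -0.29 and 1.26 in pairs 1 to 3. Kcnn4, a calcium-activated potassium channel, measured 10.8, 7.71 and 3.61 CPM in high glucose and 17.8, 10.8 and 12.8 CPM in control. Its log2 differences were -0.72, -0.48 and -1.81 in pairs 1 to 3 (edgeR adjusted p = 0.678). Of 9 surface and secreted genes tested 3 were higher and 1 lower in all 3 pairs, with a median of 0.42. Vtcn1, a B7 family surface protein, had the highest log2 difference (1.19, edgeR adjusted p = 0.868), and Tff1, a trefoil peptide, the lowest (-1.35, edgeR adjusted p = 0.945).

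The 5 simple epithelial keratins tested had a median of 0.24, and 1 (Krt18) was higher in all 3 pairs. Krt19, the keratin most used to mark ducts, measured 107, 277 and 227 CPM in high glucose and 152, 146 and 183 CPM in control, lower in high glucose in pair 1 and higher in pairs 2 and 3. Krt20 had the lowest log2 difference of this list (-0.36). The 23 epithelial junction genes had a median of 0.22, with 6 higher and 0 lower in all 3 pairs. Cldn1 had the highest log2 difference (1.67), which came from 1 high glucose library at 8.40 CPM, and Cldn3 the lowest (-0.20). The 6 genes of the cilium and polycystins, which sense flow on duct cells, had a median of 0.44, with 4 higher in all 3 pairs. In that list Pkd1 was lowest (0.13). Notch signalling holds trunk cells back from endocrine fate. The 10 Notch pathway genes tested had a median of -0.04, with 0 higher and 2 lower in all 3 pairs. Notch2 was highest (0.33), and Notch3 was lowest (-0.77, edgeR adjusted p = 0.666).

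**Figure D4:**
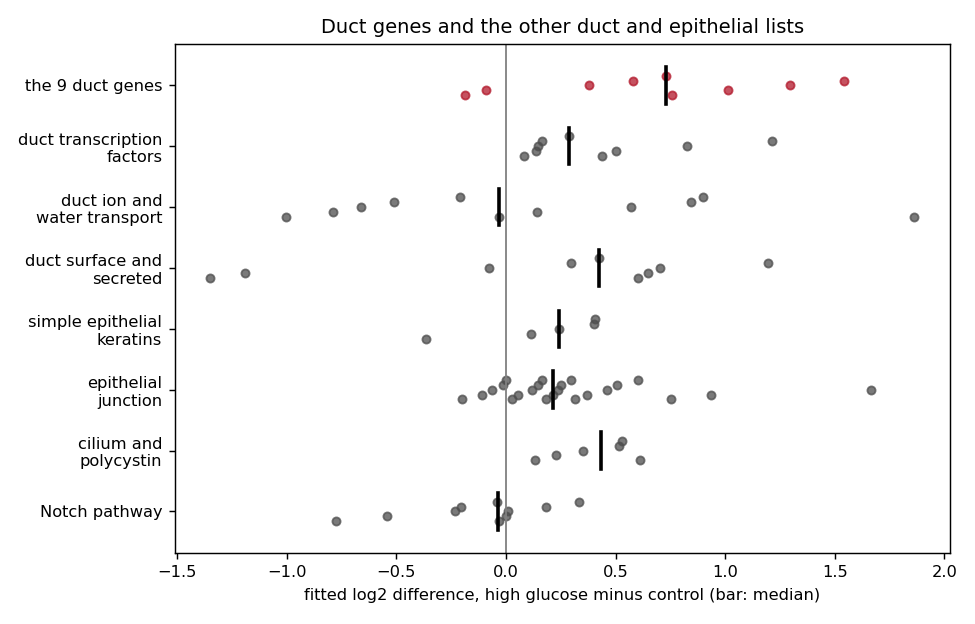
Fitted log2 differences (high glucose minus control) of the 9 duct genes and of the genes tested in 7 other duct and epithelial lists, 1 point per gene, with each list's median as a bar. The medians run from 0.73 for the 9 duct genes to -0.03 for transport and -0.04 for Notch genes.

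The genes closest in pattern to the mean of the duct genes were sought by the root mean square difference between centred log2 CPM over the 6 libraries. Of 9673 genes compared with the mean profile of the 9 duct genes, the closest were Rgs2 (0.09 on the log2 scale), Smpd3 (0.11), Cyr61 (0.14), Ivns1abp (0.15) and Rasl11b (0.15). Rgs2, a regulator of G protein signalling, measured 46.4, 32.4 and 92.3 CPM in high glucose and 29.7, 28.6 and 53.0 CPM in control. Smpd3, a sphingomyelinase, measured 80.4, 54.4 and 149 CPM in high glucose and 41.0, 43.5 and 82.9 CPM in control. Both were higher in high glucose in all 3 pairs and highest in pair 3, as the mean profile was. This follows from their being chosen for closeness to that profile. The duct genes were not each other's nearest neighbours. Spp1 was the 8th closest of 9869 genes to Cftr, Clu was the 83rd closest to Sox9, and for Cldn7 the nearest other duct gene, Epcam, ranked 4324th.

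Markers of other cell types differed between libraries too. Beta cell markers (7 of 8 found) summed to 4917 to 18488 CPM in high glucose and 11130 to 22745 CPM in control. In pair 3, where 7 duct genes peaked in the high glucose library, the beta cell sum was 4917 CPM in high glucose and 22745 CPM in control, while in pair 1 it was 18488 CPM in high glucose and 11130 CPM in control. Acinar markers (12 of 12) summed to 169 to 1572 CPM in high glucose and 45.5 to 1077 CPM in control, and in pair 3 to 767 and 45.5 CPM in that order. Alpha, delta and PP cell markers (7 of 7) summed to 1299 to 4655 CPM in high glucose and 2332 to 4844 CPM in control, and panendocrine markers (7 of 8) to 1244 to 3486 and 1268 to 2522 CPM. Mesenchyme markers (8 of 8) summed to 22656 to 31353 CPM in high glucose and 16173 to 37362 CPM in control, and mesothelial markers (4 of 6) to 486 to 773 and 442 to 764 CPM. Krt19 among the mesothelial markers and Hhex among the alpha, delta and PP cell markers are also in the duct lists. Schwann cell markers (5 of 6), of interest for Sox9, summed to 128 to 169 CPM in high glucose and 108 to 162 CPM in control. Endothelial markers (6 of 6) summed to 289 to 653 CPM in high glucose and 674 to 839 CPM in control, and erythroid markers (6 of 7) to 83.5 to 596 and 382 to 1503 CPM. The erythroid markers had the lowest median of the marker lists, -3.86, with 4 of 4 tested genes lower in high glucose in all 3 pairs (medians of -5.58, -1.35 and -4.29 in pairs 1 to 3). Of the 8 macrophage markers, 5 were lower in all 3 pairs, with a median of -0.66. Basal epithelial markers (4 of 6) summed to 72.2 to 201 CPM in high glucose and 23.2 to 109 CPM in control, nearly all from Krt17. No marker was at 0 in every library, but several stayed below 1 CPM in all, among them Col1a2, Pcsk1n, Hba1 and Hba2. The mesenchyme sums came mainly from Col1a1 and Col3a1, and the erythroid sums from Hbb. The part of these cell types in the differences of the duct genes and of the other duct and epithelial lists was not tested.

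**Figure D5:**
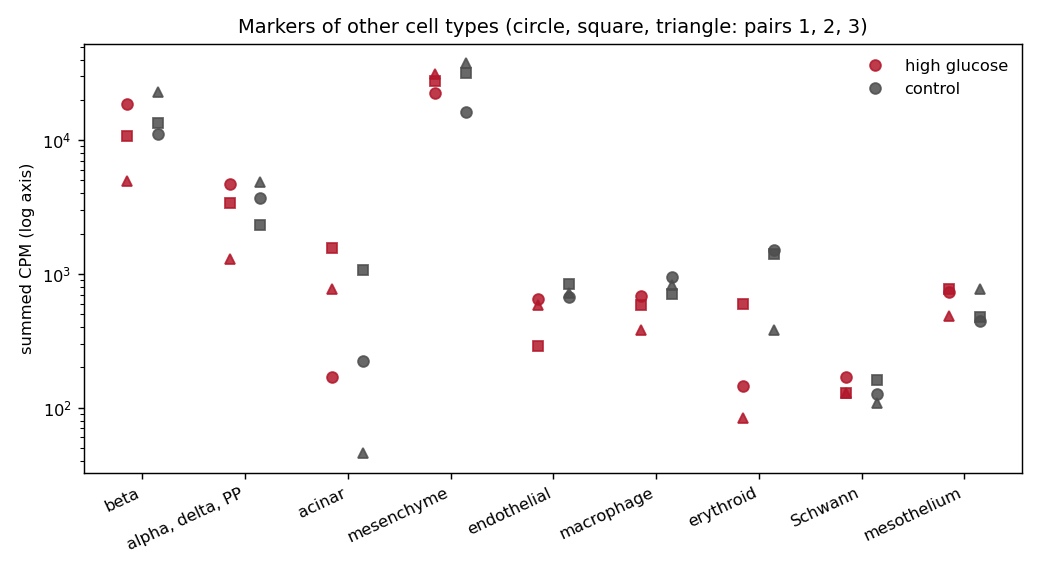
Summed CPM (log axis) of marker genes of 9 other cell types in the 3 high glucose libraries, left, and the 3 control libraries, right, with the dam pair given by the marker shape. Macrophage and endothelial sums in high glucose lie below all control sums, and the beta cell sum is lowest in the high glucose library of pair 3 (4917 CPM).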

How the data were processed

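Total counts were 22643755 to 30229658 in the high glucose libraries and 18077841 to 30993532 in the control libraries. Each deposited file gives unnormalized counts per gene from featureCounts 1.5.1, per the file headers (strand setting 2, mapping quality of at least 10, UCSC refGene annotation of rn6). The same headers give each gene's exon length, by which the authors' counts were scaled here where genes were compared with each other. STAR 2.5 was named per the submitters' processing notes. Counting by strand keeps antisense genes apart, and the quality minimum drops read pairs that map to several places.

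The test across genes used edgeR 4.0.16 under R 4.3.3 (normalization by TMM, filterByExpr, robust quasi-likelihood F-test, dam pair plus treatment, Benjamini-Hochberg adjustment over all 12276 genes that passed the filter, threshold 0.05). All 9 duct genes passed the filter. Standard errors were derived from the F statistic. Log2 differences are high glucose minus control. Within-pair values use log2 CPM with a prior count of 2. The alternatives were RLE factors, no filter, DESeq2 1.42.0, limma 3.58.1 voom, other prior counts, no block and leaving out each pair. The test was checked on simulated counts.

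Pairs come from the title stem shared by 2 libraries and from the series design. Deviations from the group means correlated across genes at 0.474, 0.621 and 0.413 within dams. No 2 libraries of a group agreed within counting noise. The dam is the replicate. The p-values rest on the spread between these 3 pairs, with each gene's variance drawn toward that of the other genes.

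The 9 genes and all gene lists were chosen with earlier results of these data known. Named in each duct or epithelial list are the highest and lowest log2 difference among genes with a mean of at least 1 CPM, plus Krt19. A few genes that this rule names are not reported here. The 5 genes closest to the mean profile needed a mean of at least 5 CPM. Of 165 list symbols 150 were found directly, 2 by a RefSeq synonym (GRCr8, used for names only), and 13 are not analysed here.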

Additional observations from a re-analysis of the deposited data

How the results depend on the processing

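Without the replicate block edgeR called 0 genes (192 at an unadjusted p below 0.05) in place of 2, 0 duct genes (1 at that level), and the median log2 difference of the duct genes was 0.55 in place of 0.73. The number of genes called was 2 with RLE factors, 4 with limma voom, 18 with no filter and 106 with DESeq2, and 18 to 55 without 1 pair. Duct genes called stayed at 0 except with DESeq2, which called 2 (Cftr and Clu). Without 1 pair the fitted log2 difference ranged from 1.28 to 1.70 for Cftr (edgeR adjusted p 0.226 to 0.322), from 0.88 to 1.16 for Clu (edgeR adjusted p 0.224 to 0.462), from 0.17 to 1.04 for Sox9, from 0.61 to 2.05 for Onecut1, from 0.376 to 1.004 for Muc1, from 0.54 to 0.89 for Spp1, from 0.29 to 0.44 for Epcam, from -0.78 to 0.66 for Tspan8 and from -0.46 to 0.48 for Cldn7, the last 2 turning above 0 without pair 1. The 9 genes had 72 log2 differences under these alternatives, of which 70 kept their sign. These values reuse the same libraries and are not independent of each other, and the 2 changes of sign came without pair 1. Other prior counts and RLE factors left 5 duct genes higher in all 3 pairs. Scaling to Epcam counts, added after the data were seen, left 3 of the other 4, since Epcam as the divisor drops out and only Muc1 was lost by measurement. In pair 3 the log2 ratio difference was near 0 both for Spp1, which was kept (0.007), and for Muc1 (-0.006). Depth limits Onecut1 (19 to 309 counts a library) and Cftr (25 to 852 counts) most among the 9 genes.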

Other observations

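The order of signs by dam was also counted in the 73 other duct and epithelial genes, after the values were seen. Lower in high glucose in pair 1 and higher in pairs 2 and 3, as Tspan8 and Cldn7 were, stood 17 of these genes (23.3%). Among them were the claudin genes Cldn3 and Cldn4, the occludin gene Ocln, the keratin genes Krt8 and Krt19 and the membrane protease gene St14. Over all genes tested 13.8% had that order of signs. Some of the 17 genes held it by a log2 difference near 0, such as Prom1 (-0.01 in pair 1) and Pkp3 (0.02 in pair 2). Other junction and keratin genes were higher in high glucose in pair 1, among them Cldn6 (log2 difference 1.74), Krt18 (0.36) and Cdh1 (0.18). Cldn4 measured 202, 256 and 372 CPM in high glucose and 336, 216 and 210 CPM in control. The order of Sox9 and Onecut1, lower in high glucose in pair 2 alone, was found in 11 of the 73 genes (15.1%), a share close to the 13.5% of all genes tested. Cldn6, a claudin of fetal epithelia, measured 69.2, 147 and 129 CPM in high glucose and 20.6, 174 and 75.3 CPM in control. Lcn2, a secreted iron-binding defence protein, was higher in high glucose in all 3 pairs, at 191, 426 and 1189 CPM in high glucose and 105, 310 and 692 CPM in control (log2 difference 0.70, edgeR adjusted p = 0.553, DESeq2 adjusted p = 0.0452). The cell of origin of Lcn2 was not tested.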
